A study of Mus musculus with 5 samples.

Results

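The genes described here are the matrix metalloproteinases (symbols Mmp), the ADAM and ADAMTS proteases (Adam, Adamts), the ADAMTS-like proteins (Adamtsl) and the tissue inhibitors of metalloproteinases (Timp). They were taken from the deposited table by whole symbol, as 1 of these names followed by digits and at most 1 lower-case letter. The rule found 57 of 17638 genes, namely 16 Mmp, 15 Adam, 17 Adamts, 5 Adamtsl and 4 Timp genes. Their RNA was counted in cells positive for CD31, a surface protein of endothelium that platelets and some leukocytes carry too. The cells came from hearts of C57BL/6 mice aged 2 months, 5 days after a myocardial infarction. Tbx1cko hearts gave 2 libraries. These mice carry a conditional Tbx1 deletion that the series calls endothelial, with the Cre driver and the deleted exons not given in the sources used here. Control hearts gave 3 libraries, after the same infarction, and no uninjured heart is among the 5 samples. No label ties a library to an animal of its own. The p-values therefore measure only how these 5 libraries vary, and part of that may be technical.

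Most of these enzymes are zinc proteases that are made as inactive precursors and act outside the cell or at its surface. MMPs cut collagen, elastin and basement membrane, ADAMs release the outer parts of membrane proteins such as growth factors, cytokine receptors and Notch, and ADAMTS enzymes cut proteoglycans and trim procollagen. ADAMTS-like proteins share the matrix-binding modules of ADAMTS enzymes but have no protease domain, and TIMPs block the active site of the proteases. After an infarction, neutrophils and macrophages bring MMPs into the wound, while endothelial cells use membrane-bound MMPs and sheddases when new vessels form.

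The sequence around the start of transcription is given first for Adamts1 and for 4 of the 5 MMP genes of the table in 1 stretch of chromosome 9. Mmp12 and Mmp8, of that stretch, had the largest positive differences of the group, and Adamts1 had the highest level. Mmp27 is left out, and its window, like that of Mmp12, holds neither motif below. Each run has 250 bases before and 50 after the annotated start (RefSeq, GRCm38.p6), 5′ to 3′. Capitals mark matches to AP-1 (TGANTCA) and to the TATA box (TATAAA), searched on both strands. None of the matches in the 5 windows overlapped another.
Mmp3 (chr9:7445572-7445871, plus strand): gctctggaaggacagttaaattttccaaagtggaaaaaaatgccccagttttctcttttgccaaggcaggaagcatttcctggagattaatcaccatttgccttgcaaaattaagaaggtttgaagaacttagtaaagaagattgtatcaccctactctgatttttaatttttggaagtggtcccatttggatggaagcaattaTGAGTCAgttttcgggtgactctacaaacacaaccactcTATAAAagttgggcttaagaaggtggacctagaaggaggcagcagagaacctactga
Mmp13 (chr9:7272264-7272563, plus strand): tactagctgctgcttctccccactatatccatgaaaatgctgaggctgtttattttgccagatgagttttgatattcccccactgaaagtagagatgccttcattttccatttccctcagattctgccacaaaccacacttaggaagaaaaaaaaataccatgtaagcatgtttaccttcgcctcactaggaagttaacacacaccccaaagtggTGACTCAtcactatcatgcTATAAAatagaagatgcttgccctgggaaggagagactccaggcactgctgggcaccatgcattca
Mmp8 (chr9:7558179-7558478, plus strand): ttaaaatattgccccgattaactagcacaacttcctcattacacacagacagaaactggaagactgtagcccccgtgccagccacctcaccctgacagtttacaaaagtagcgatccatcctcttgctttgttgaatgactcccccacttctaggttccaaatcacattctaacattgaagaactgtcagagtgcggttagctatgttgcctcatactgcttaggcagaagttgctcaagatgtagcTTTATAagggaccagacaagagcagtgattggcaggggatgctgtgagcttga
Mmp12 (chr9:7344147-7344446, plus strand): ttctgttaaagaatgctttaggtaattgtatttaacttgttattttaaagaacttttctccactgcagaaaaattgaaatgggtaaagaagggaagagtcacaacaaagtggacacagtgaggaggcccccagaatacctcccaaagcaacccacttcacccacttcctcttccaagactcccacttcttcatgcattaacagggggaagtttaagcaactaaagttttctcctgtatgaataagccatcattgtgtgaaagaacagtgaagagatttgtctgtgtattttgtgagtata
Adamts1 (chr16:85803064-85803363, minus strand): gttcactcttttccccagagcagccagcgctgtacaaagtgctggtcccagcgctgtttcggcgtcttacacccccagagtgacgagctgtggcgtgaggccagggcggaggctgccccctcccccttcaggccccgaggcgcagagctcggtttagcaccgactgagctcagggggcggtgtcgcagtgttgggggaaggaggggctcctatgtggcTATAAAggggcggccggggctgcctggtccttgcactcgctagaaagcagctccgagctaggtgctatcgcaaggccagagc

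Mmp3 held an AP-1 match that begins at position -46 from the start site and a TATAAA match at -7. In Mmp13 the AP-1 match began at -35 and the TATAAA match at -16. Mmp8 had a TATAAA match on the opposite strand, with its first base at -3, and Adamts1 a TATAAA match at -32, while the window of Mmp12 held neither motif. These are matches of letters, and whether they work as promoter elements was not tested. Windows were found for 36 of the 57 genes. AP-1 matches lay in 3 of them, 8.33% (Mmp3, Mmp13 and Adam19), against 7.81% of all 32851 windows. A TATAAA match lay in 5, 13.9%, against 13.6% of all. The T-box half-site GGTGTGA, on either strand, was in 0 of the 36 windows and in 3.98% of all, which says only that these letters are not in these windows.

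Recovered reads per library ranged from 14689782 to 18617284. Tbx1, the targeted gene, had 18.3 and 17.3 normalised counts in the Tbx1cko libraries, against 64.4, 72.7 and 69.6 in the controls, so the values go with the labels. CD31 itself, Pecam1, had 38311 and 33715 normalised counts in the Tbx1cko libraries, against 38138, 43313 and 37541 in the controls. All 14 endothelial markers passed the filter, and so did all 14 macrophage and monocyte markers, so RNA of both kinds of cell was present. In bulk RNA, fewer cells of a type and less RNA per cell cannot be told apart. Control library 2 stood apart. Across the genes tested it correlated with the other libraries at r of 0.859 to 0.889, and these with each other at 0.980 to 0.988, as a description across genes. Values are therefore given with and without it, and every value is a normalised count, that is, reads divided by the library's size factor.

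These genes took between 0.546% and 0.604% of the normalised counts of a library. Levels of different genes were compared per kb of exons. On that scale Adamts1, a protease of proteoglycans such as versican, was first, at 4461 normalised counts per kb on average over the 5 libraries. The next were the sheddase Adam15 at 1508, the inhibitors Timp3 at 1311 and Timp2 at 1201, the aggrecanase Adamts4 at 1197 and the Notch sheddase Adam10 at 1029 normalised counts per kb. The lowest and highest library of Adam15, Timp3, Timp2, Adamts4 and Adam10 overlapped those of each neighbour in this order, so their ranks are not separated. Adam15 had 2323 in control 2 and 1173 to 1391 in the other libraries. Membrane-type Mmp15 (889.6) and Mmp14 (754) led the MMPs per kb, far above the gelatinases Mmp2 (249.7) and Mmp9 (116). Mmp15 had 1522 in control 2, against 796 and 539 in the Tbx1cko libraries and 794 and 798 in controls 1 and 3. Mmp14 had 828 and 699 in the Tbx1cko libraries and 648 and 834 in controls 1 and 3, so the order of Mmp15 and Mmp14 rests on control 2. Adamts1 stood above every other gene of the group in all 5 libraries and made up 22.9% to 28.2% of the group's normalised counts.

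**Figure D1:**
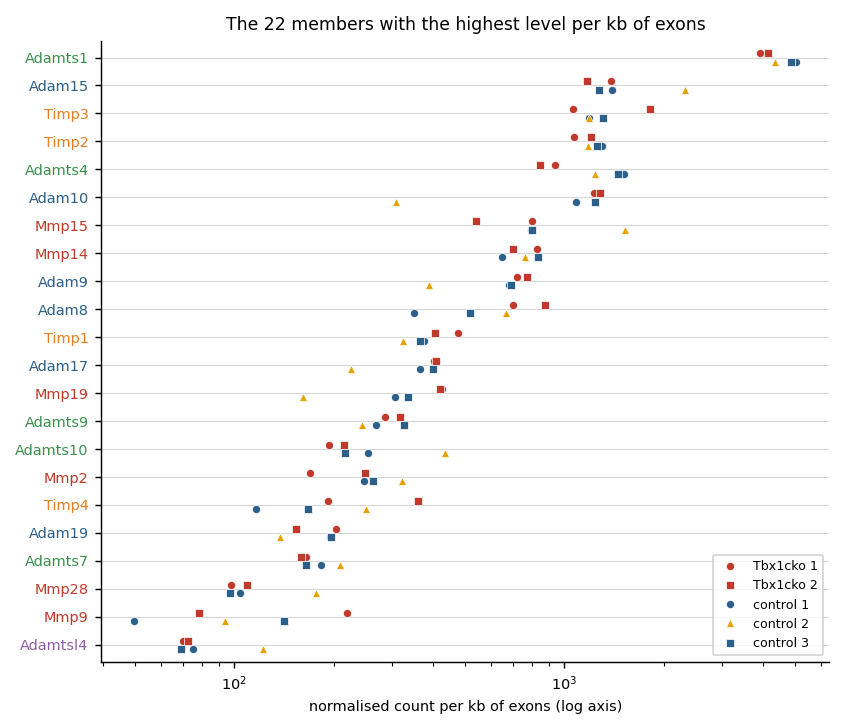
Normalised count per kb of exons (log axis) in each library for the 22 genes of the group with the highest mean, sorted by that mean. Red symbols are Tbx1cko libraries 1 and 2, drawn above controls 1 and 3 (blue) and control 2 (yellow triangle). Adamts1 is separated from all others, and the yellow triangle often lies outside the other symbols of its row, as for Adam10 and Mmp15.

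Of the 57 genes, 49 had a mean normalised count of at least 10 and were tested. The 8 below the filter were Adam4, Adam5, Adam32, Mmp16, Adamts3, Adamts16, Adamts18 and Adamts20. Adam4, Adam5 and Adam32 are best known from the testis, and Adamts3 takes part in the activation of the lymphatic growth factor VEGF-C. Adamts3 had 4.57 and 15.3 normalised counts in the Tbx1cko libraries, against 11.3, 4.60 and 10.3 in the controls, and Adam4 had 14.6 and 14.3 normalised counts in the Tbx1cko libraries, against 6.78, 0 and 14.1 in the controls. None of the 8 reached more than 16 reads in a library, so differences among them were not detectable at this depth.

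None of the 49 genes passed an adjusted p of 0.05 between Tbx1cko and control (limma, adjusted over all 14339 genes tested, smallest adjusted p 0.762), where 0.0% of all genes were called. At an unadjusted p under 0.05, 4 genes were lower in Tbx1cko (8.16%, against 1.37% of all genes) and 0 higher (against 0.37% of all). The lower ones were Adamtsl1, Adamts4, Mmp11 and Adamtsl5. This count of lower genes was 1 without Tbx1cko library 1, 0 without Tbx1cko library 2 and 2 without control 1, fits that also have fewer libraries. DESeq2 on the recovered reads called 0 of the 49, with 0.0279% of all genes called, and edgeR called 0. At an unadjusted p under 0.05 each of these tools had 5 of the genes lower and 0 higher. The groups did not overlap for 13 genes lower (26.5%) and 8 higher (16.3%) in Tbx1cko, where 13.9% and 14.2% of all genes did so. The log2 differences, on log2(normalised count + 1), had a median of -0.03 over the 49 genes and 0.03 over all genes, with 25 negative and 24 positive.

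Without control library 2, limma called 0 of 51 genes of the group (smallest adjusted p 0.155), and 0.0209% of all genes. At an unadjusted p under 0.05 it then had 5 lower and 5 higher in Tbx1cko, 9.8% each, where all genes had 4.02% lower and 3.39% higher. DESeq2 without that library called 2 lower, Adamts4 and Adamtsl1, and 1 higher, Adam8, where it called 0.279% of all genes lower and 0.181% higher. edgeR without it called 0 of the group, with 5 lower and 5 higher at an unadjusted p under 0.05. These 3 calls thus rest on leaving out a library and on 1 tool.

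**Figure D2:**
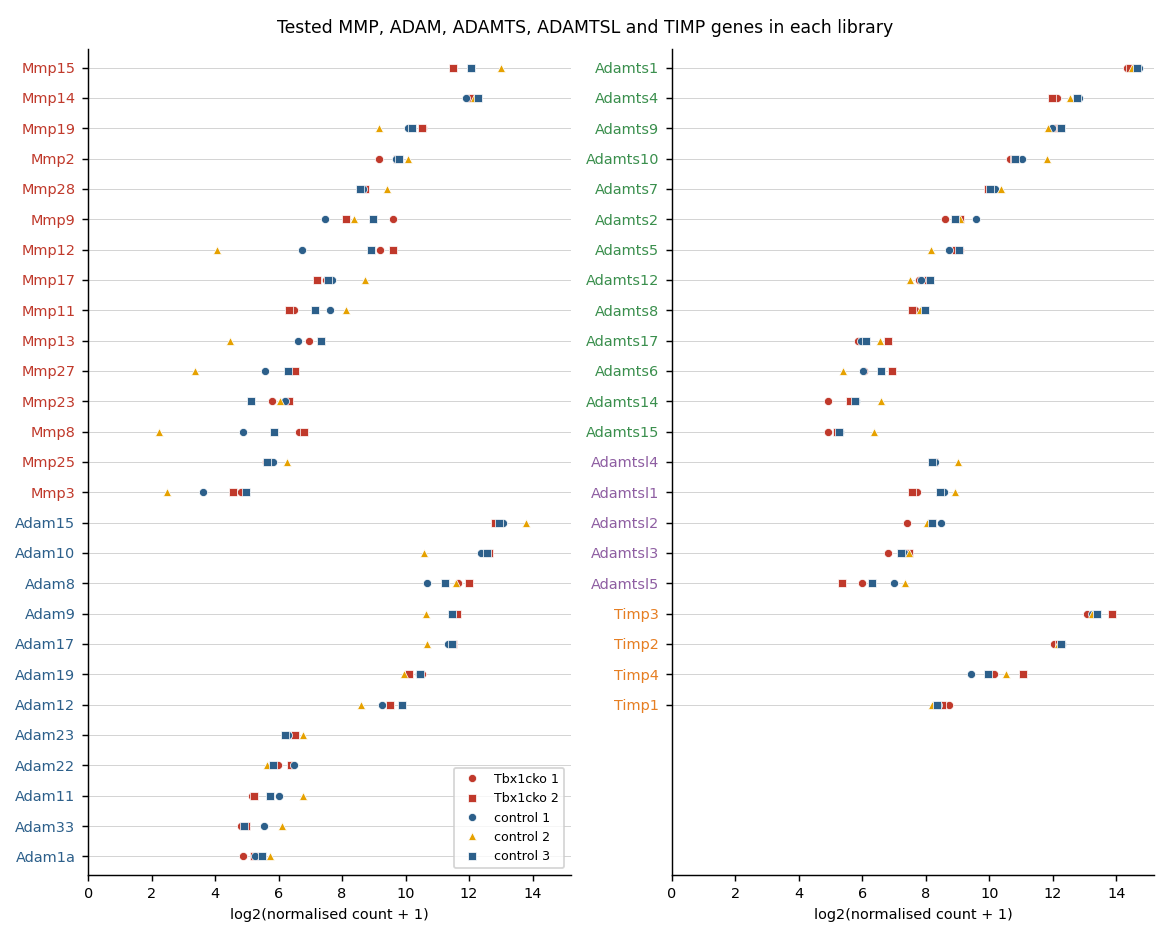
log2(normalised count + 1) in each library for the 49 tested genes, grouped by family (label colours) and sorted by mean. Red symbols are the Tbx1cko libraries, blue symbols controls 1 and 3 and yellow triangles control 2. For most genes the red and blue symbols lie together, and the widest spread is that of control 2 in Mmp12, Mmp8, Mmp13 and Mmp27.

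Among the ADAMTS proteases, Adamts4 had the smallest p and lay below controls in both Tbx1cko libraries. Adamts4 (chr1:171250421-171260637, plus strand, GRCm38), which cuts aggrecan and versican, had 4504 and 4061 normalised counts in the Tbx1cko libraries, against 7281, 5940.2 and 6989 in the controls. The highest Tbx1cko value lay below the lowest control, control 2. The means were 4283 ± 314 in Tbx1cko (SD, n = 2) and 6737 ± 705 in controls (SD, n = 3), a log2 difference of -0.65 (SE 0.18) with a limma adjusted p of 0.762. Without control 2 it was -0.74 (SE 0.12) with a limma adjusted p of 0.155, and DESeq2 gave -0.75 with an adjusted p of 9.5e-05. Correction for GC content moved the difference to -0.41 with all libraries, and it was -0.67 with that correction and no control 2. No source used here gives the strand setting of the counting. In all, 15 of the 57 genes, among them Mmp11, Mmp12, Mmp19, Adam8, Adam17, Timp3 and Timp4, have exons that overlap a gene on the other strand, so their counts are uncertain to that extent.

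Adamts1, the most abundant gene of the group, had 20723 and 21941 normalised counts in the Tbx1cko libraries, against 26731, 23028 and 25837 in the controls. Both Tbx1cko values lay below all controls, but the step was small, at -0.24 (SE 0.16) on the log2 scale (limma adjusted p 0.762) and -0.30 without control 2. Adamts9, a versican protease of endothelial cells, had 4313 and 4770.3 normalised counts in the Tbx1cko libraries, against 4052, 3666 and 4915 in the controls, with overlapping groups. Adamts5, the second major aggrecanase beside Adamts4 and a neighbour of Adamts1 on chromosome 16, had 541 and 490.2 normalised counts in the Tbx1cko libraries, against 425, 286 and 527 in the controls. Its log2 difference of 0.36 (SE 0.31) was 0.12 without control 2, and GC correction turned it to -0.12.

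Adamts7, Adamts8, Adamts10, Adamts14 and Adamts15 were also lower in both Tbx1cko libraries than in any control. With Adamts1 and Adamts4 they made up 7 of the 13 tested Adamts genes (53.8%, against 13.9% of all genes). In this family 0 were higher without overlap, against 14.2% of all genes. Adamts10, which binds fibrillin microfibrils, had 1601 and 1769 normalised counts in the Tbx1cko libraries, against 2096, 3590.0 and 1787 in the controls, and control 2 was the highest library. Its log2 difference of -0.50 (SE 0.34) was -0.20 without that library, and -0.15 with GC correction of all libraries. Adamts7, which cuts cartilage oligomeric matrix protein, had 1036 and 1002 normalised counts in the Tbx1cko libraries, against 1148, 1314 and 1038 in the controls. Its gap was small, with the highest Tbx1cko value just under the lowest control. The log2 difference of Adamts7 was -0.19, or -0.10 without control 2, and GC correction with all libraries turned it to 0.14. Of the procollagen N-propeptidases, Adamts2 had 388 and 536 normalised counts in the Tbx1cko libraries, against 762, 543 and 481 in the controls, and Adamts14 had 29.3 and 47.9 normalised counts in the Tbx1cko libraries, against 54.2, 95.7 and 53.6 in the controls. In Adamts14 both Tbx1cko values were lower than all controls, with a log2 difference of -0.79 (SE 0.42) that was -0.51 without control 2. Adamts8 and Adamts15, neighbours on chromosome 9, had log2 differences of -0.29 and -0.59, which were -0.33 and -0.23 without control 2. GC correction with all libraries moved them to 0.02 and -0.35. Adamts6, Adamts12 and Adamts17 overlapped between groups. Adamts13 was not analysed here.

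All 5 ADAMTS-like genes had negative log2 differences, with a median of -0.44 (-0.54 without control 2), although GC correction turned Adamtsl4 to 0.13 and leaving out a library could turn Adamtsl3. The median was -0.82 without Tbx1cko library 2, -0.24 without Tbx1cko library 1 and -0.25 with GC correction. Adamtsl1 (chr4:85514172-86428385, plus strand, GRCm38), a matrix protein also called punctin, had 208 and 188 normalised counts in the Tbx1cko libraries, against 375, 483 and 347 in the controls. Every control library exceeded both Tbx1cko libraries by a wide margin. The means were 198 ± 14.2 in Tbx1cko (SD, n = 2) and 402 ± 71.7 in controls (SD, n = 3), without overlap. The fitted log2 difference was -1.01 (SE 0.25), or 2.01-fold lower, at a limma adjusted p of 0.762. Without control 2 it was -0.87 (SE 0.17) in limma (adjusted p 0.199) and -0.88 in DESeq2 (adjusted p 0.0242), and after GC correction -0.83.

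Adamtsl5 had 62.2 and 39.7 normalised counts in the Tbx1cko libraries, against 127, 162 and 77.2 in the controls, again without overlap but with few reads, a log2 difference of -1.21 (SE 0.43) that was -0.98 without control 2. Adamtsl2, which binds fibrillin and latent TGF-beta binding protein, had 168 and 288 normalised counts in the Tbx1cko libraries, against 353, 259 and 292 in the controls. The higher Tbx1cko value lay within the control range. Adamtsl4, known from the fibres that hold the eye lens, had 293 and 304 normalised counts in the Tbx1cko libraries, against 314, 511 and 289 in the controls, and control 2 alone made its difference of -0.27, which was -0.01 without it. Adamtsl3 had 112 and 174 normalised counts in the Tbx1cko libraries, against 158, 177 and 147 in the controls, with overlapping groups.

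**Figure D3:**
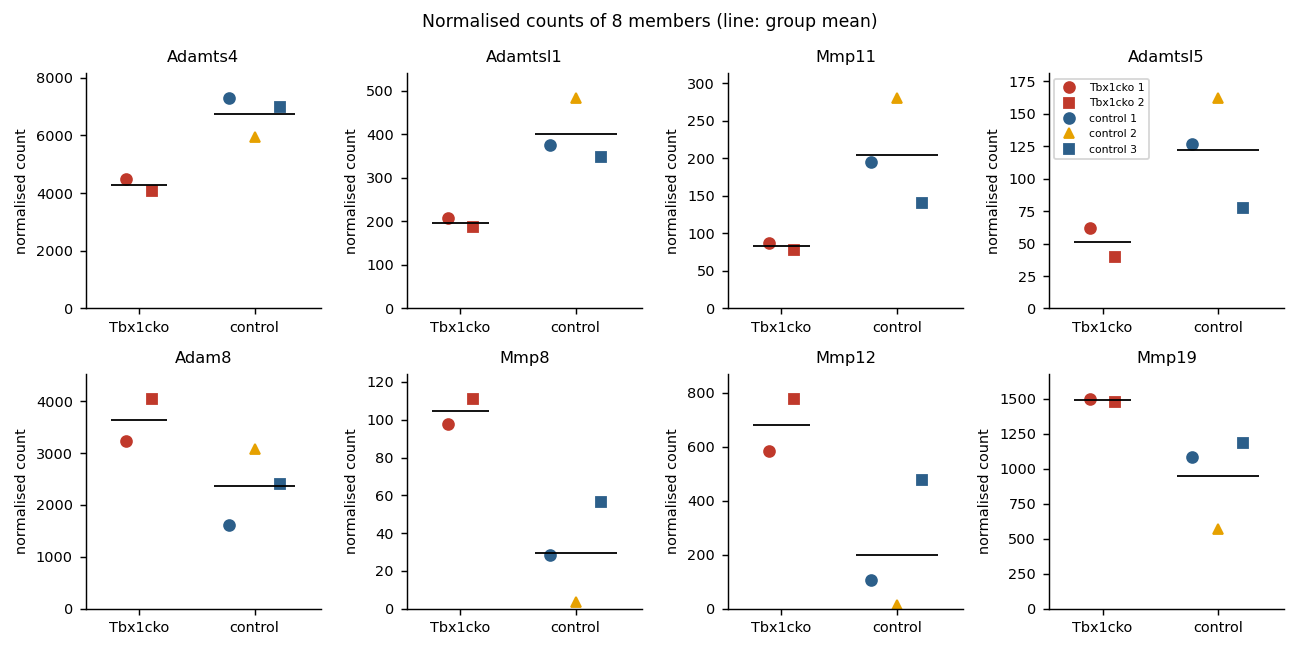
Normalised counts in each library for 8 genes, with a line at each group mean; axes start at 0. In the upper row (Adamts4, Adamtsl1, Mmp11, Adamtsl5) both Tbx1cko libraries lie below all controls, and in the lower row (Adam8, Mmp8, Mmp12, Mmp19) both lie above. Control 2, the yellow triangle, is the lowest control for Mmp8, Mmp12 and Mmp19 and the highest for Adamtsl1, Mmp11, Adamtsl5 and Adam8.

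Mmp12 and Mmp8, proteases of leukocytes, had the largest positive log2 differences of the group, though neither passed the test. Mmp12 (chr9:7344381-7369499, plus strand, GRCm38), the elastase of macrophages, had 586 and 779 normalised counts in the Tbx1cko libraries, against 106, 15.6 and 477 in the controls. Both Tbx1cko values lay above all controls, and the controls themselves ranged over more than an order of magnitude. Its log2 difference of 2.83 (SE 1.36) (limma adjusted p 0.762) was 1.58 (SE 0.49) without control 2 (limma adjusted p 0.417, DESeq2 adjusted p 0.9997). Mmp8 (chr9:7558456-7568485, plus strand), the collagenase of neutrophils, had 97.9 and 111 normalised counts in the Tbx1cko libraries, against 28.2, 3.68 and 56.5 in the controls, from 4 to 109 reads per library. It too was higher without overlap, at 2.40 (SE 1.08), or 1.36 (SE 0.34) without control 2 (limma adjusted p 0.295).

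Mmp12 and Mmp8 belong to a run of 5 MMP genes of the table on chromosome 9 between 7272514 and 7581885 (GRCm38), with Mmp13, Mmp3 and Mmp27. The summed normalised counts of the 5 genes were 921 and 1164 in the Tbx1cko libraries, against 289, 54.3 and 802 in the controls. All 5 log2 differences were positive, with a median of 1.39 that was 0.53 without control 2. The collagenase Mmp13 had 124 and 162 normalised counts in the Tbx1cko libraries, against 97.2, 21.2 and 160.0 in the controls, so apart from control 2 the groups were mixed. Mmp3, stromelysin-1, had 27.4 and 22.4 normalised counts in the Tbx1cko libraries, against 11.3, 4.60 and 30.1 in the controls, and Mmp27 had 85.1 and 89.7 normalised counts in the Tbx1cko libraries, against 46.3, 9.20 and 78.1 in the controls. Mmp27 lay above all controls, and without control 2 its difference of 1.39 was 0.53. The 5 transcripts have GC contents of 40.3% to 45.9%, against a median of 53.4% in the tested group, and control 2 was low in all of them.

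Mmp19, an MMP of monocytes and vessel walls, had 1501 and 1479 normalised counts in the Tbx1cko libraries, against 1082, 568 and 1186 in the controls. The Tbx1cko libraries lay close together and above all controls, with a log2 difference of 0.73 (SE 0.36) that was 0.39 (SE 0.12) without control 2 (limma adjusted p 0.417, DESeq2 adjusted p 0.494). The gelatinase Mmp9, which neutrophils carry in granules, had 776 and 277 normalised counts in the Tbx1cko libraries, against 176, 332 and 499 in the controls. Tbx1cko library 1 was the highest and library 2 fell within the controls, so the groups overlapped. Mmp2, the gelatinase of stromal cells, had 571 and 839.7 normalised counts in the Tbx1cko libraries, against 830.5, 1083 and 885 in the controls, a log2 difference of -0.42 (SE 0.26) with overlap.

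The abundant membrane-type MMPs overlapped between groups. Mmp14, which activates pro-MMP2 on the cell surface, had 4935 and 4169 normalised counts in the Tbx1cko libraries, against 3861, 4536 and 4970.0 in the controls, a log2 difference of 0.03 (SE 0.20). Mmp15 had 4294 and 2910.5 normalised counts in the Tbx1cko libraries, against 4285, 8213 and 4305 in the controls. Control 2 was the highest library for Mmp15, and its difference of -0.59 was -0.28 without it. Mmp17, tethered by a lipid anchor, had 179 and 148 normalised counts in the Tbx1cko libraries, against 203, 424 and 187 in the controls, lower without overlap, a difference of -0.63 that was -0.26 without control 2. Mmp28, Mmp25 and Mmp23 overlapped between groups, at -0.23, -0.27 and 0.27 on the log2 scale. Without control 2 these were 0.04, -0.09 and 0.40, so Mmp28 turned sign.

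Mmp11 (chr10:75923222-75936496, minus strand, GRCm38), stromelysin-3, was the MMP with the clearest lower values in Tbx1cko. It had 87.8 and 78.5 normalised counts in the Tbx1cko libraries, against 194, 279.6 and 140.2 in the controls, so every control was above both Tbx1cko libraries. The means were 83.1 ± 6.60 in Tbx1cko (SD, n = 2) and 205 ± 70.3 in controls (SD, n = 3), without overlap. The fitted log2 difference was -1.24 (SE 0.36), or 2.35-fold lower, at a limma adjusted p of 0.762. Without control 2 it was -0.98 (SE 0.24) (limma adjusted p 0.279, DESeq2 adjusted p 0.137). Its exons overlap Chchd10 on the other strand, which had 241 and 189 normalised counts in the Tbx1cko libraries, against 276, 502 and 191 in the controls.

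Of the ADAM genes, Adam8 was the one that DESeq2 called without control 2. Adam8 (chr7:139978932-139992562, minus strand, GRCm38), a membrane protease of granulocytes and macrophages, had 3240.5 and 4046 normalised counts in the Tbx1cko libraries, against 1620.3, 3086 and 2397 in the controls. The lower Tbx1cko library lay just above control 2, the highest control. The means were 3643 ± 569 in Tbx1cko (SD, n = 2) and 2368 ± 733 in controls (SD, n = 3), a log2 difference of 0.66 (SE 0.32) with a limma adjusted p of 0.762. Without control 2 it was 0.88 (SE 0.18) in limma (adjusted p 0.199) and 0.85 in DESeq2 (adjusted p 0.00393). For this gene GC correction enlarged the difference, to 0.89. Without control 1, the lowest library, the difference was 0.41, so the size for Adam8 rests in part on that library.

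The general sheddases stayed near control levels once control 2 was set aside. Adam10, which makes the first surface cut of Notch receptors, had 6036 and 6291 normalised counts in the Tbx1cko libraries, against 5342, 1518 and 6098 in the controls. Control 2 was far below the other libraries, and the log2 difference of 0.75 (SE 0.63) was 0.11 without it. Adam17, which releases TNF, had 2885 and 2912 normalised counts in the Tbx1cko libraries, against 2604, 1619 and 2851 in the controls, a difference of 0.34 that was 0.09 without control 2. Adam9 had 2959.7 and 3168 normalised counts in the Tbx1cko libraries, against 2802, 1604 and 2839.8 in the controls, with a difference of 0.39 that was 0.12 without it. Adam17 and Adam9 were higher without overlap, but by little next to controls 1 and 3. Adam15, an ADAM of endothelial junctions, went the other way in control 2, with 8479 and 7209 normalised counts in the Tbx1cko libraries, against 8550.0, 14273 and 7824 in the controls, and its difference of -0.33 was -0.07 without it.

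Adam12 and Adam19, proteases of mesenchymal cells and heart cushions, overlapped between groups, at 0.27 and 0.02 on the log2 scale. Without control 2 both turned sign, to -0.06 and -0.14. Adam11, Adam22 and Adam23 are neural ADAMs without protease activity. Adam11 had 34.8 and 36.7 normalised counts in the Tbx1cko libraries, against 63.3, 108 and 51.8 in the controls, lower without overlap but with 36 to 117 reads, at -0.97 (SE 0.40), or -0.67 without control 2. Adam22 and Adam23 overlapped between groups. Adam33 overlapped as well, and Adam1a, which the testis uses, was lower without overlap at -0.43. The exons of Adam1a overlap those of Mapkapk5 and Gm42878 on the same strand and of Tmem116 on the other, so its count is uncertain.

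None of the 4 inhibitors passed the test, and GC correction turned the sign of Timp2, to 0.06, and of Timp3, to -0.02. Timp4, the TIMP best known from heart and vessels, had 1135 and 2116 normalised counts in the Tbx1cko libraries, against 686, 1472 and 984 in the controls. Control 2 exceeded Tbx1cko library 1, so the groups overlapped, at a log2 difference of 0.63 (SE 0.43). Without control 2 both Tbx1cko libraries were above the controls, at 0.91 (SE 0.25), with adjusted p of 0.339 in limma and 0.96 in DESeq2. The gene lies within Syn2, on the other strand, and Syn2 had 177 and 163 normalised counts in the Tbx1cko libraries, against 129.9, 129.7 and 128 in the controls. Timp1, the TIMP that injury induces, had 423 and 359.7 normalised counts in the Tbx1cko libraries, against 334, 289 and 324 in the controls, higher without overlap at 0.31 (SE 0.22). Timp3, which binds the matrix and also blocks ADAM17 and ADAMTS enzymes, had 8645 and 14794 normalised counts in the Tbx1cko libraries, against 9655, 9639 and 10656 in the controls. Tbx1cko library 2 was the highest and library 1 the lowest, so the groups overlapped. Timp2, the partner of MMP14, had 4179.8 and 4683 normalised counts in the Tbx1cko libraries, against 5047, 4595 and 4899 in the controls, a difference of -0.13 (SE 0.17).

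The departures of control 2 followed the GC content of the transcripts. Over the 49 tested genes, Spearman's rho between GC percent and the log2 value of control 2 minus the mean of the other controls was 0.799, against 0.794 over the 13771 tested genes with a GC value. Both are descriptions across genes that share 5 libraries. Control 2 was the lowest of the 5 libraries for 17 of the tested genes and the highest for 19. The Tbx1cko minus control difference followed GC too, at a rho of -0.73 with all libraries and -0.553 without control 2, against -0.714 and -0.308 over all genes. Setting control 2 aside made the size of the difference smaller for 35 of 49 genes and changed the sign of 5.

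**Figure D4:**
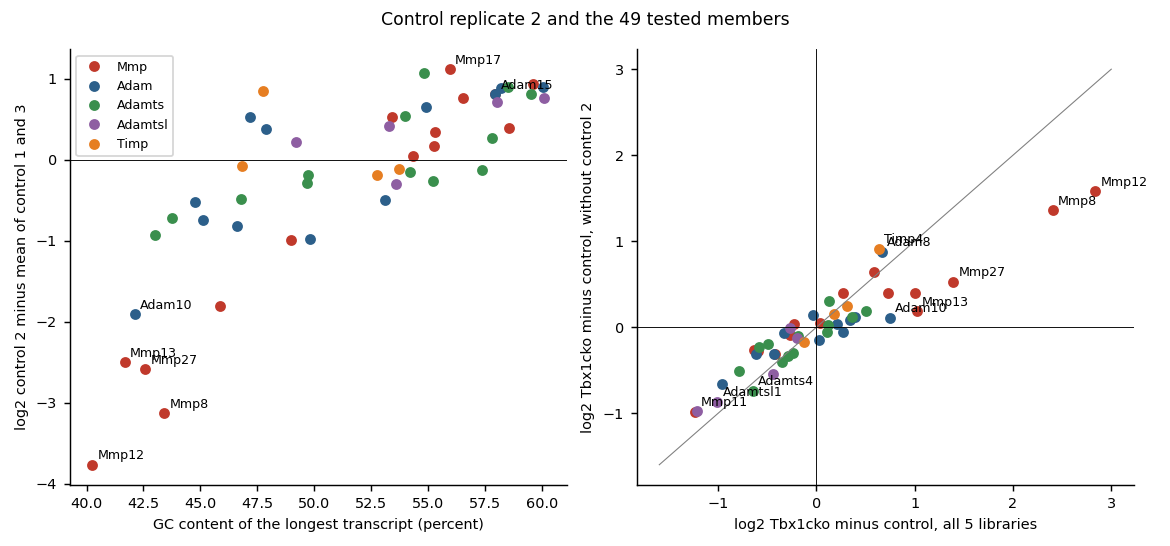
Left, log2 value of control 2 minus the mean of controls 1 and 3, against GC content of the longest transcript, for the 49 tested genes coloured by family. Right, the log2 difference between Tbx1cko and control without control 2 against that with all 5 libraries, with the line of equality in grey. Mmp12 and Mmp8 are far below 0 on the left and far below the line on the right, while Adam8, Timp4 and Adamts4 lie close to the line or further from 0 than with all libraries.

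Markers of other cells moved beside these results, and their part in them was not tested. Neutrophil markers other than Mmp8 and Mmp9, 6 of 10 in the table, summed to 1271 and 1219 in the Tbx1cko libraries, against 936, 615 and 776 in the controls, so the groups did not overlap. Among them Csf3r had a log2 difference of 0.46 (SE 0.24), and S100a9 had 302 and 191 normalised counts in the Tbx1cko libraries, against 134, 14.7 and 56.5 in the controls. Ly6g, Camp, Ngp and Elane were not analysed here. Macrophage and monocyte markers summed to 101434 and 103595 in the Tbx1cko libraries, against 105212, 67941 and 82599 in the controls, with overlap, and 6 of 14 were higher without overlap (42.9%, against 14.2% of all genes). Their median log2 difference was 0.39, or 0.20 without control 2. The most abundant ones, Lyz2, C1qb and C1qa, each overlapped between groups, with Lyz2 at 0.42 on the log2 scale, or 0.25 without control 2. These values stand beside those of Mmp8, Mmp12, Mmp19 and Adam8. Platelet and megakaryocyte markers summed to 3776 and 3283 in the Tbx1cko libraries, against 1417, 2107 and 2459 in the controls, higher without overlap, with 6 of 8 tested differences positive. No marker of these lists that is in the table was at 0 in every library.

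Beside the lower genes, mural cell markers summed to 40489 and 42344 in the Tbx1cko libraries, against 61773, 50448 and 53344 in the controls, without overlap, and 11 of 13 were lower without overlap (84.6%, against 13.9% of all genes). Of the 3 most abundant, Acta2 and Notch3 differed by -0.86 and -1.24 on the log2 scale, and Rgs5, at 0.25, overlapped. Without control 2 these were -0.60, -0.93 and -0.39, so Rgs5 turned sign. Genes that cell dissociation induces summed to 256651 and 292953 in the Tbx1cko libraries, against 423181, 628718 and 324851 in the controls, and 13 of 15 were lower without overlap (86.7%, against the same 13.9%), with Fos, Fosb and Zfp36 at -0.54, -0.78 and -0.51 on the log2 scale, or -0.32, -0.51 and -0.34 without control 2. Fibroblast markers summed to 20528 and 41214 in the Tbx1cko libraries, against 39127, 23045 and 26970.1 in the controls, with overlap, and Col3a1, Col1a1 and Col1a2 overlapped singly. Their high Tbx1cko library 2 was also the high one for Timp3 and Timp4. Endothelial markers summed to 238432 and 225392 in the Tbx1cko libraries, against 260028, 355359.6 and 246920.0 in the controls, lower without overlap. Of the 14, 12 had negative and 2 positive differences, 9 lower without overlap (64.3%, against 13.9% of all genes) and 1 higher (7.14%, against 14.2%). Pecam1 overlapped between groups, and Cdh5 and Eng were at -0.21 and -0.59 on the log2 scale, or -0.08 and -0.25 without control 2. Lymphatic endothelial markers summed to 9568 and 8168 in the Tbx1cko libraries, against 11205, 14484 and 13654 in the controls, and all 7 had negative differences. DESeq2 without control 2 called 4 of the 7 lower, where it called 0.279% of all genes lower. Without that library limma called 0 of the 7. Endocardial markers summed to 12219 and 10751 in the Tbx1cko libraries, against 14561, 20285 and 14464 in the controls, with all 9 differences negative. With 5 libraries these sums were not related to single genes by a coefficient.

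**Figure D5:**
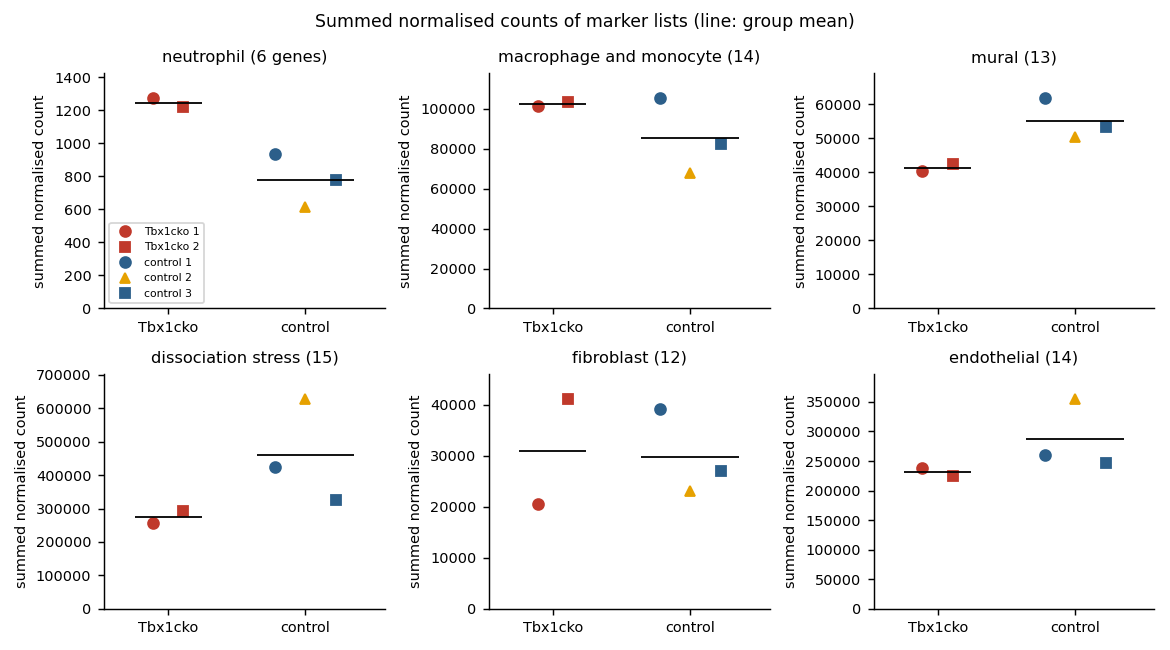
Summed normalised counts of 6 marker lists in each library, with a line at each group mean; axes start at 0. Both Tbx1cko libraries lie above all controls for neutrophil markers and below all controls for mural markers, dissociation stress genes and endothelial markers. Macrophage and fibroblast markers overlap between groups.

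Genes that work with these proteases were read from 6 lists. No gene of them passed the limma threshold. The first held activators and inhibitors other than TIMPs. Of 18 members tested of 22 listed, 16 had a negative and 2 a positive log2 difference, with a median of -0.30, which was -0.18 without control 2. At an unadjusted p under 0.05, 1 was lower (5.56%, against 1.37% of all genes) and 0 higher. Pcsk6, a proprotein convertase, had 438 and 429 normalised counts in the Tbx1cko libraries, against 610.1, 746 and 607 in the controls. Serpine2, an inhibitor of thrombin and plasminogen activators, had 546 and 515 normalised counts in the Tbx1cko libraries, against 1211, 705 and 784 in the controls, and DESeq2 without control 2 called it lower (adjusted p 0.00789). Hspg2, the basement membrane proteoglycan perlecan, had 60635 and 58405 normalised counts in the Tbx1cko libraries, against 75419, 116746 and 69033 in the controls. All 3, named for their small p, were lower without overlap. Of the 18 tested, 5 were so (27.8%, against 13.9% of all genes) and 0 were higher without overlap.

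Partners of ADAM10 and ADAM17 formed the next list. Of 15 members tested of 17 listed, 14 had a negative and 1 a positive log2 difference, with a median of -0.17, against 9 negative, 6 positive and a median of -0.07 without control 2. The inactive rhomboids Rhbdf2 and Rhbdf1, which carry ADAM17 to the surface, and their partner Frmd8 had the smallest p. Rhbdf2 had 2148 and 2216 normalised counts in the Tbx1cko libraries, against 2700.5, 4133 and 2672 in the controls, and Rhbdf1 had 1204 and 1149.5 normalised counts in the Tbx1cko libraries, against 1445, 2194 and 1290.0 in the controls. Frmd8 had 753 and 742 normalised counts in the Tbx1cko libraries, against 832, 1268 and 802 in the controls. In each of the 3 the Tbx1cko libraries were lowest, and control 2 was the highest. They were the only ones of the 15 tested that were lower without overlap (20.0%, against 13.9% of all genes), and 0 were higher without overlap.

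Proteins that ADAMs shed were counted as well. Of 35 members tested of 36 listed, 26 had a negative and 9 a positive log2 difference, with a median of -0.20, which was -0.10 without control 2. At an unadjusted p under 0.05, 3 were lower (8.57%, against 1.37% of all genes) and 1 higher (2.86%, against 0.37%). DESeq2 without control 2 called 1 lower, Notch3, where it called 0.279% of all genes lower. Notch3, a receptor of mural cells, had 2039.6 and 2235 normalised counts in the Tbx1cko libraries, against 4802, 7785 and 3443 in the controls. The adhesion receptor Icam1 had 7072 and 8926 normalised counts in the Tbx1cko libraries, against 11939, 15027 and 10714 in the controls. Tnf, the cytokine that ADAM17 frees, had 1586 and 1238 normalised counts in the Tbx1cko libraries, against 702, 846 and 1041 in the controls, higher in Tbx1cko without overlap at a log2 difference of 0.72 (SE 0.26). Of the 35 tested, 3 were higher without overlap (8.57%, against 14.2% of all genes) and 17 lower (48.6%, against 13.9%).

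Substrates of ADAMTS enzymes gave a median of -0.11 over 13 tested genes, 8 negative and 5 positive, which was -0.16 without control 2 and 0.02 with GC correction. Aggrecan, Acan, had 77.7 and 88.7 normalised counts in the Tbx1cko libraries, against 125, 134 and 149 in the controls, and Comp had 98.8 and 89.7 normalised counts in the Tbx1cko libraries, against 191, 473 and 158 in the controls. Both were lower without overlap, at a limma adjusted p of 0.762 each. The proteoglycan Bgn had 8472 and 8724 normalised counts in the Tbx1cko libraries, against 12415, 9999 and 10862 in the controls, also without overlap. Acan, Comp and Bgn were named for their small p. Of the 13 tested, 4 were lower without overlap (30.8%, against 13.9% of all genes) and 0 higher. Versican, Vcan, a substrate of ADAMTS1 and ADAMTS4, had 391 and 377 normalised counts in the Tbx1cko libraries, against 288, 62.5 and 380.1 in the controls, with control 2 far below the rest. Related metalloproteases and matrix proteins outside the symbol rule had a median of -0.16 over 11 genes, 6 negative and 5 positive, which GC correction turned to 0.07. Of these, Thsd4, an ADAMTS-like protein by structure, had 83.2 and 108 normalised counts in the Tbx1cko libraries, against 146, 253 and 140.2 in the controls, and papilin, Papln, had 1563 and 2233 normalised counts in the Tbx1cko libraries, against 2179.6, 4092 and 2171 in the controls. Pappa, which cuts IGF-binding proteins, had 32.0 and 17.3 normalised counts in the Tbx1cko libraries, against 5.65, 4.60 and 19.8 in the controls, with overlap. Mmrn1, an endothelial matrix protein chosen after its values were seen, was the only one that DESeq2 called without control 2, lower at an adjusted p of 0.00391. It is also in the list of lymphatic endothelial markers and is 1 of the 4 called there.

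AP-1 subunits, which bind several MMP promoters, made up the last list. All 8 subunits were lower without overlap, as were 13.9% of all genes, with a median log2 difference of -0.78 (-0.50 without control 2). Fosl1 had 327 and 362 normalised counts in the Tbx1cko libraries, against 531, 820.5 and 523 in the controls, and Fosl2 had 10257 and 13789 normalised counts in the Tbx1cko libraries, against 18885, 19683 and 15182 in the controls. Jund had 1422 and 1528 normalised counts in the Tbx1cko libraries, against 2826, 3382 and 1734 in the controls. Control 2 was the highest library for each of these 3 genes. Fos, Fosb, Jun, Junb and Atf3 are in this list and in that of dissociation genes. Mmp3 and Mmp13, whose windows hold the AP-1 letters, had log2 differences of 1.001 and 1.02, with overlap, which were 0.40 and 0.19 without control 2. Adam19, the other gene with an AP-1 match, was at 0.02, or -0.14 without control 2.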

How the data were processed

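Polyadenylated RNA was sequenced from CD31-positive heart cells, in 2 Tbx1cko and 3 control libraries grouped by sample title. Per the submitters' processing notes, STAR 2.5.2b and DESeq2 1.20.0 were among the tools, with DESeq and R 3.5.1, and the build was GRCm38 (mm10). How reads were counted, including strand, was not given in the sources used here. What the authors deposited is a signal for each of 17638 genes, namely reads over a size factor of the library. Within 0.01, 100% of values were multiples of what 1 read is worth in that library, which gave back the whole reads.

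The main test was limma 3.58.1 (R 4.3.3) on log2(normalised count + 1) with a trended prior, genotype as the only term, genes with a mean of at least 10, 2-sided, with Benjamini-Hochberg adjustment over all genes and a threshold of 0.05. The pseudocount understates the change of low genes. edgeR 4.0.16 and DESeq2 1.42.0 on the recovered reads, which called 0 and 4 genes, other pseudocounts, filters and scaling, GC correction (loess, span 0.3), a replicate block and leaving out libraries were alternatives. The fits were checked on simulated counts with a low dispersion set by hand, which says nothing of power at the spread of these libraries. Exon length and GC came from GENCODE M21, with all 57 genes matched.

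The genes of the group and the lists were chosen with earlier results of these data known, so no set test was run. Named genes were Tbx1, all Timp genes, the 12 of the group with the smallest unadjusted p, the 4 most abundant of each other family, a set of well-known members, 3 genes per pathway list by p and the 3 most abundant markers of a list. Other genes of the group, Vcan, Mmrn1 and the overlapping genes fall outside this rule and were named with their values seen. Replicates differed by more than sampling noise, with a chi-square per degree of freedom of 14.2 or more for each pair, so none was counted as a duplicate. One result on an overlapping gene is not reported here.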

Additional observations from a re-analysis of the deposited data

How the results depend on the processing

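Of 28 named genes of the group, 20 kept the sign of their log2 difference under all 17 alternatives in which they could be tested. The other 8 changed sign under at least 1. With GC correction these were Adam17 (-0.0211), Adamtsl4 (0.13), Timp2 (0.0630) and Timp3 (-0.0233), and with GC correction without control replicate 2 they were Adam15 (0.0482) and Adamtsl4 (0.15). Leaving out each library gave ranges of -0.52 to 0.12 for Adamtsl3, -0.0881 to 0.16 for Mmp14, -0.15 to 1.33 for Mmp9 and -0.21 to 0.57 for Timp3. The number of genes called was 4 with DESeq2, 66 with DESeq2 without control replicate 2, 3 with edgeR without it and 0 to 3 when each library was left out. Of the group, 3 genes were called with DESeq2 without control replicate 2. Tbx1 was called by DESeq2 at -1.95, and at -1.92 without control replicate 2. The group's median log2 difference ranged from -0.21 to -0.0498 when each library was left out. A fit that leaves out a Tbx1cko library has 1 left, which is assumed to vary like the controls.

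With the replicate number as a block, 3 genes and 1 of the group were called, Mmp12 at 4.0 on the log2 scale (limma adjusted p 0.0414), and the group's median was -0.12. Same-numbered libraries had correlations of deviations from the group means of -0.06 for number 1 and -0.05 for number 2. With 2 Tbx1cko libraries these deviations mirror each other by construction, and control 2 stands apart. The check therefore cannot settle whether same-numbered libraries were paired, and the labels give them only a shared number. The cause of the changes between settings was not tested. Genes with few reads, such as Mmp8, Mmp3 and Adamtsl5, are limited by depth.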
